A study of Mus musculus with 12 samples.

Results

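The genes described here encode the nuclear subunits of the mitochondrial respiratory chain and of ATP synthase, followed through 4 populations of mouse granulopoiesis. They are the 93 genes, of 19937 genes tested, whose array row carried a single symbol beginning with Ndufa, Ndufb, Ndufc, Ndufs, Ndufv, Sdha, Sdhb, Sdhc, Sdhd, Uqcr, Cox4i, Cox5, Cox6, Cox7, Cox8 or Atp5. Of these, 82 are subunits: 34 of complex I, 4 of complex II, 8 of complex III, 19 of complex IV and 17 of complex V, the ATP synthase. The other 11 (Ndufaf1 to Ndufaf7 and Sdhaf1 to Sdhaf4) share a prefix with the subunits but act as assembly factors, and they were counted separately. The subunits encoded by mitochondrial DNA were not analysed here.

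RNA came from bone marrow cells of untreated C57BL/6 mice, sorted into the 4 populations, and was hybridised to 12 Affymetrix arrays (Mouse Gene 1.0 ST), 3 for each population. LSK cells are the lineage-negative, Sca1-positive, cKit-positive fraction that holds hemopoietic stem and progenitor cells. The neutrophil lineage then passes through promyelocytes and myelocytes to granulocytes, and these stages had been sorted on lineage antigens, Gr-1, cKit, CD34 and CD16/32. All 4 populations came from bone marrow, so the granulocytes are those of the marrow and not of blood, and each is a sorted pool that can hold other cells. The labels call the arrays of a population biological replicates but do not name the animals behind each, so the p-values below rest on the variation among these arrays, part of which may be technical.

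As background, complexes I to IV pass electrons from NADH and succinate to oxygen and, except for complex II, pump protons out of the mitochondrial matrix. ATP synthase lets the protons back through its c-ring and uses the flow to make ATP. Most subunits are encoded in the nucleus and are built into the complexes with the help of assembly factors. Mature neutrophils are known for few mitochondria and for drawing most of their ATP from glycolysis, while dividing progenitors rely more on respiration.

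Regulatory sequence is shown for the genes on which the results turn. These are subunits of complex II, of which some but not all fell, the genes of the ATP synthase c-ring, and Ndufa1, which rose. Among subunits, the c-ring gene Atp5g2 fell most on the array rows used. RefSeq promoter windows (build GRCm38.p6) were found for 77 of the 93 genes, 82 windows in all, Sdhc not among them. Each window below gives the 250 bases before the annotated start, read 5′ to 3′ on the strand of the gene. Capitals mark matches on either strand to GCGCA followed by any base and GCGC, the core of the site of nuclear respiratory factor 1 (NRF1), or to CCGGAAG, a core of the sites of ETS factors such as GABP. The windows of Sdha (chr13:74350241-74350490, minus strand), Sdhb (chr4:140961021-140961270, plus strand) and Sdhd (chr9:50603850-50604099, minus strand) stand first.
Sdha: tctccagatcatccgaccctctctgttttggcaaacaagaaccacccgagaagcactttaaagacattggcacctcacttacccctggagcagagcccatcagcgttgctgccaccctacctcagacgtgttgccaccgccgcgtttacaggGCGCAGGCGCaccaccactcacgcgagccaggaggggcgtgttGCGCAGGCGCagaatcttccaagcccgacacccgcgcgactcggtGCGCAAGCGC
Sdhb: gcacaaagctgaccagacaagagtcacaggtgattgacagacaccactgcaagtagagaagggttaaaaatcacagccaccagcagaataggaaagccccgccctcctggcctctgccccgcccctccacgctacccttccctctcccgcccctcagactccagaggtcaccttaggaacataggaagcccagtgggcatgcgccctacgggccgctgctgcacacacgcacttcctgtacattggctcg
Sdhd: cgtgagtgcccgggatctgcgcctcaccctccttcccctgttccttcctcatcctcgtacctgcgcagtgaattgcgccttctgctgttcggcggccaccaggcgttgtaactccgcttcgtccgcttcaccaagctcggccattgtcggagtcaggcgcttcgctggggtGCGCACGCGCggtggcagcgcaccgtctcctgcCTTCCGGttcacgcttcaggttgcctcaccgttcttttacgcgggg
The windows of the c-ring genes Atp5g1 (chr11:96075632-96075881), Atp5g2 (chr15:102671048-102671297) and Atp5g3 (chr2:73911327-73911576), and of Ndufa1 (chrX:37191239-37191488), all on the minus strand, follow.
Atp5g1: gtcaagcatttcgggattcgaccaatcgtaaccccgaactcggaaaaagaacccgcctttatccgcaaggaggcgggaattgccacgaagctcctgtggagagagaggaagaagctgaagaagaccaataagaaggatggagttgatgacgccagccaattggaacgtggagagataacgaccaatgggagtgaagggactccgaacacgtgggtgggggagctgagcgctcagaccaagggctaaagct
Atp5g2: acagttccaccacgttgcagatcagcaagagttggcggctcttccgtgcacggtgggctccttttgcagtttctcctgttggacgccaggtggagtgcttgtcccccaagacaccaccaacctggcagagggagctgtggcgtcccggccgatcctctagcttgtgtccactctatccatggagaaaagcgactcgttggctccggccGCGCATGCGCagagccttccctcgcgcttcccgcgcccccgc
Atp5g3: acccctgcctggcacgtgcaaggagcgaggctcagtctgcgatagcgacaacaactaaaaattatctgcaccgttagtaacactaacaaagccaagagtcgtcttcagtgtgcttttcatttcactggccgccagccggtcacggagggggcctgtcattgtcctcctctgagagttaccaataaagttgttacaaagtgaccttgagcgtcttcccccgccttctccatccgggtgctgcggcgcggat
Ndufa1: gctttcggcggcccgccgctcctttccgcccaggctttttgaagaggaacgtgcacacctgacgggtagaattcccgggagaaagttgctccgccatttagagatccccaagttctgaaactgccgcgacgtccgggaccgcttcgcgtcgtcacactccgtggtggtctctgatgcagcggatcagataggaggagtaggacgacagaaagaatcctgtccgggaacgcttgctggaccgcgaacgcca
The Sdha window held 3 NRF1 matches, the Sdhd window 1 NRF1 and 1 ETS match, and the Atp5g2 window 1 NRF1 match, while those of Sdhb, Atp5g1, Atp5g3 and Ndufa1 held neither. Over the whole table, 3.74% of 32851 windows of this length held the NRF1 core and 6.91% the ETS core. Over windows of genes tested the shares were 5.65% and 9.41%, and over the 72 windows of subunits they were 18.1% and 16.7%. Of the 22 windows of subunits that were lower in granulocytes than in LSK cells, 2 held the NRF1 core and 2 the ETS core. Of the other 50 subunit windows, 11 held the NRF1 core and 10 the ETS core. A YY1 core (AAGATGGCG) was in 1.39% of subunit windows against 0.774% of windows of genes tested, an E-box (CACGTG) in 9.72% against 7%, and a GC box (GGGCGG) in 34.7% against 45.6%. The motifs were searched on both strands, do not contain one another, and a match is a description of letters and not of binding.

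The summed level of the markers of each of the 4 populations was highest in the population of that name. The mean log2 value of Mpo, the peroxidase of primary granules, was 12.6 in promyelocytes and 6.92 in granulocytes, but also 11.4 in LSK cells. That of Cxcr2, a chemokine receptor of mature neutrophils, was 6.13 in LSK cells and 12.3 in granulocytes. Transcripts of primary granules were thus high in LSK cells too. The sum of 5 promyelocyte markers spanned 11.3 to 13.5 there and 13.8 to 14.4 in promyelocytes. Markers of other lineages moved with the stages as well: the summed level (log2 of summed linear values) of 6 eosinophil markers spanned 7.52 to 7.85 in LSK cells and 8.85 to 12.6 in promyelocytes, and that of 7 basophil and mast cell markers spanned 12.3 to 14.1 in myelocytes against 9.71 to 10.2 in LSK cells. Of the 6 eosinophil markers, 2 lay above the level of olfactory receptor genes (log2 4.51, the 95th percentile of 1194 genes that these cells are not known to use) in LSK cells and 5 in each later population. For 7 monocyte and macrophage markers the range was 8.94 to 10.4 in LSK cells and 11.9 to 12.7 in promyelocytes. In granulocytes the eosinophil, basophil and monocyte sums spanned 8.19 to 8.93, 11.6 to 11.8 and 10.1 to 10.3, and the basophil sum was set by Hdc (mean 11.6), the other 6 markers having means of 3.39 to 6.47. The sum of 6 erythroid markers fell outside the LSK range of 10.7 to 11.4 in later stages, with 8.13 to 9.16 in promyelocytes, 7.90 to 8.29 in myelocytes and 8.28 to 9.00 in granulocytes. The part of these cells in the results below was not tested, and in bulk RNA fewer cells of a type and less RNA per cell cannot be told apart.

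Some arrays stood apart for the respiratory chain genes but not for genes as a whole. Granulocyte array 3 gave the lowest of its 3 values for 71 of the 93 genes (76.3%, against 33.9% of all genes), and its median gap to the mean of the other granulocyte arrays was -0.30 on the log2 scale, against 0.01 for all genes. Promyelocyte array 3 was lowest for 69 genes (74.2% against 37.9%) with a median gap of -0.42 against 0.03, and LSK array 3 was lowest for 58 (62.4% against 33.9%) with a median gap of -0.20 against -0.02. Gaps beyond 1 log2 unit were carried by few genes, 10 on granulocyte array 3, 8 on promyelocyte array 3 and 1 on LSK array 3. The clearest case was Cox7a2, a complex IV subunit, at 7.19, 7.39 and 5.64 in the 3 granulocyte samples. Counts are therefore given with and without promyelocyte array 3 and granulocyte array 3, an alternative chosen after seeing the data. LSK array 3 was kept in that alternative.

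Across the 4 stages most of the respiratory chain genes had their highest mean in promyelocytes and their lowest in granulocytes, although 51 of the 93 were not called in any of the 5 comparisons below. The highest mean was in promyelocytes for 65 of the 93 genes (57 of 82 subunits), and the lowest was in granulocytes for 64 (59 of 82 subunits) and in LSK cells for 20. Over all genes tested, 4596 of 19937 were highest in promyelocytes and 5016 were lowest in granulocytes. The moderated F test of limma passed 67 of the 93 genes at an adjusted p under 0.05 (72%, against 54% of all genes), and 75 without the 2 arrays named above. Of the 93 genes, 85 lay above the level of olfactory receptor genes in every population, and Cox7b2 lay above it in none.

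The subunit medians of all 5 complexes lay below 0 in granulocytes against both earlier populations. The median difference of granulocytes from promyelocytes, on the log2 scale, was -0.91 for complex I, -0.96 for complex II, -0.81 for complex III, -0.42 for complex IV and -1.24 for complex V, against 0.13 for all genes. Against LSK cells the medians were -0.42, -0.32, -0.30, -0.21 and -0.64 in the same order, against 0.17 for all genes. The spread of a complex median between replicate arrays (SD) was 0.19, 0.34, 0.22, 0.20 and 0.22. Leaving out 1 array moved the medians against LSK cells to between -0.56 and -0.11 for complex II, -0.47 and -0.16 for complex III and -0.30 and -0.09 for complex IV. The granulocyte medians of complex V, relative to the LSK mean, were -0.45, -0.60 and -0.99 on the 3 arrays and lay below all LSK arrays, which spanned -0.20 to 0.14. Those of complex IV were -0.02, -0.14 and -0.66, and the first of these lay within the LSK range of -0.06 to 0.08. Those of complex II were -0.09, -0.24 and -0.67, and all but the last lay within the LSK range of -0.33 to 0.37. The complex II median against LSK cells was smaller in size than its spread, with 2 subunits below 0 and 2 above. No direction is therefore given for complex II against LSK cells. With each array centred on its 75th percentile the complex IV median against LSK cells was 0.0028, so no direction is given for it. No test was run of the difference between complexes.

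**Figure D1:**
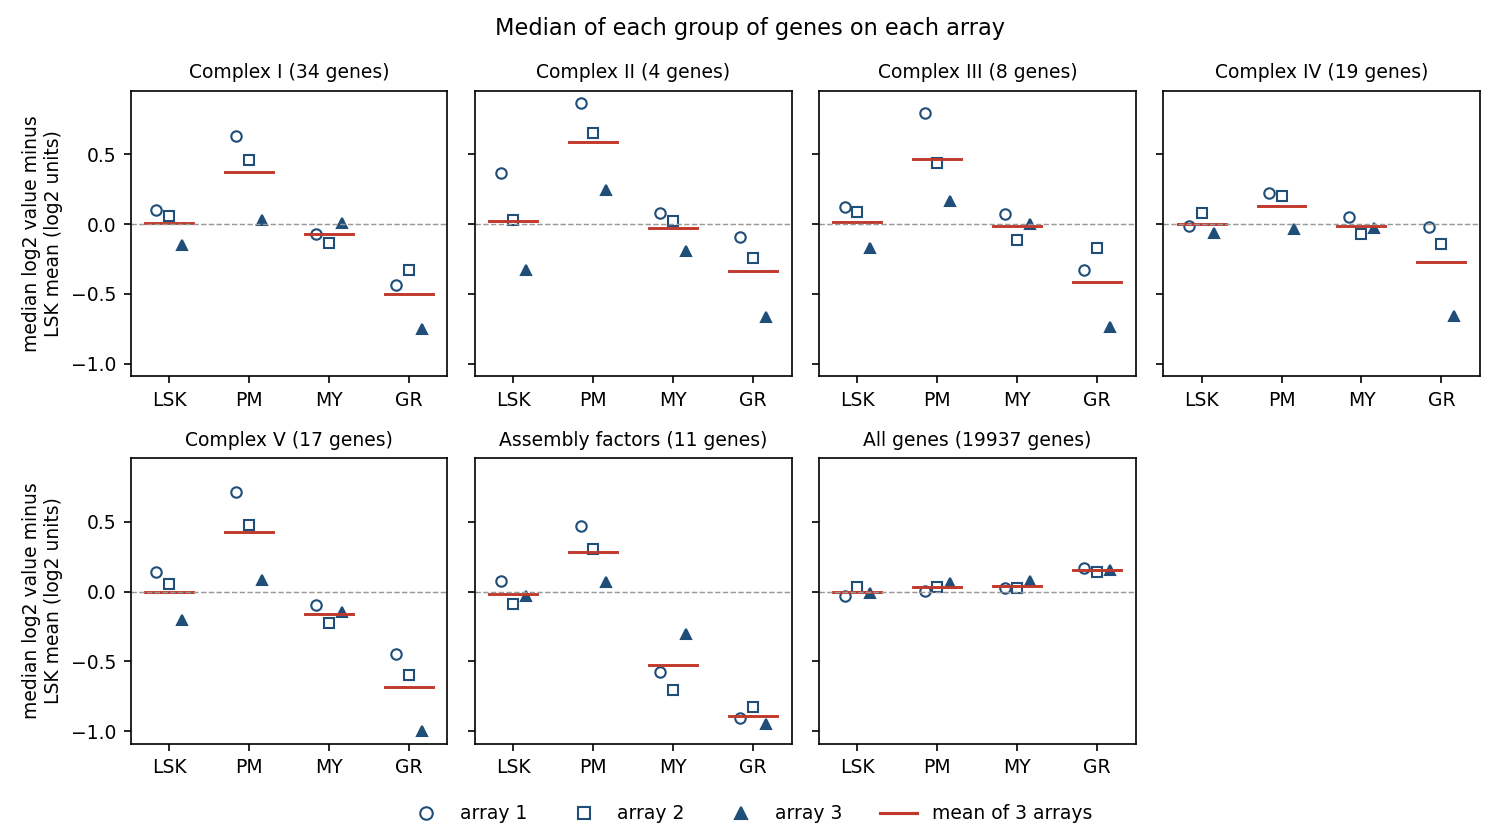
Each panel plots, for 1 group of genes, the median over its genes of the log2 value minus the gene's mean in LSK cells (y axis, log2 units) on each array in LSK cells, promyelocytes (PM), myelocytes (MY) and granulocytes (GR); symbols mark the array number and red lines the mean of 3 arrays. Medians of complexes I, III and V are highest in promyelocytes and lowest in granulocytes, array 3 is the lowest granulocyte array in each complex, and the median of all genes lies between -0.03 and 0.17 throughout.

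From LSK cells to promyelocytes few genes passed the test, and all of them rose. A gene was called at a limma adjusted p under 0.05, with Benjamini-Hochberg adjustment over all 19937 genes, and a fold of at least 2. By this rule 3 of the 93 genes were higher in promyelocytes and 0 were lower, where 1.61% of all genes were called higher and 2.75% lower. The lower side also had 0 genes at an adjusted p under 0.05 with no fold minimum, where the higher side had 19. Most of the changes were below the fold required: 81 of the 93 differences were above 0 and the median was 0.35, against 0.04 for all genes.

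The 3 genes were Ndufa1, Ndufb3 and Atp5mpl. Ndufa1, a small membrane-arm subunit of complex I, had log2 values of 7.11, 6.77 and 6.65 in LSK cells and 8.26, 8.37 and 7.95 in promyelocytes, a difference of 1.35 (SE 0.22, adjusted p = 0.000787). Its values did not overlap between the populations, and it was called under every setting tried. Ndufb3, another accessory subunit of that arm, had 6.26, 5.30 and 5.45 against 6.61, 6.52 and 7.23, a difference of 1.11 (SE 0.23, adjusted p = 0.00382). It dropped to 0.89 without promyelocyte array 3 and to 0.93 without LSK array 2, both short of the fold required. Atp5mpl, a small subunit of the membrane part of ATP synthase, rose by 1.10 (SE 0.21, adjusted p = 0.00202) from 8.42, 8.42 and 7.84 to 9.30, 9.33 and 9.35. Its rise was 0.90 without LSK array 3, short of the fold required. Without promyelocyte array 3 the count of higher genes was 7, with Atp5g1, Atp5l, Sdhb, Sdhd and Uqcr11 added and Ndufb3 lost.

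Between promyelocytes and myelocytes 17 of the 93 genes fell and 0 rose, where 9.87% of all genes were called lower and 7.61% higher. With no fold minimum, 36 were lower and 1 was higher at an adjusted p under 0.05. The fall was called for 5 genes of complex I, 1 of complex II, 0 of complex III, 1 of complex IV, 5 of complex V and 5 of the 11 assembly factors. The largest falls were those of the complex I assembly factors Ndufaf4 (-2.46, SE 0.23, adjusted p = 4.19e-07) and Ndufaf2 (-2.16, SE 0.18, adjusted p = 9.38e-08). They were followed by the c-ring genes Atp5g1 (-1.83) and Atp5g2 (-1.63) and by Sdhaf1 (-1.53), which helps to place iron-sulfur clusters in complex II. Calls nearest to the fold required were Atp5g3 (-1.09), Ndufab1 (-1.08), Ndufa4 (-1.08), Atp5mpl (-1.05) and Sdha (-1.03). Genes just outside it were Ndufaf5 (-0.98), Atp5o (-0.97), Ndufa12 (-0.96), Uqcrc1 (-0.95) and Ndufa5 (-0.93). Without the 2 arrays named above, 23 genes were lower.

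Between myelocytes and granulocytes 11 genes fell and 0 rose, where 5.96% of all genes were called lower and 2.35% higher. With no fold minimum, 35 were lower and 2 were higher. All 11 are subunits: 5 of complex I, 1 of complex III, 3 of complex IV and 2 of complex V. The largest falls were in accessory subunits of complex I, namely Ndufc2 (-1.77, SE 0.33, adjusted p = 0.00104), Ndufc1 (-1.40), Ndufa9 (-1.35) and Ndufb5 (-1.23), and in Ndufa4 (-1.22). A second array row named for Ndufc1 had -0.70 and was not called. Calls nearest to the fold required were Ndufs3 (-1.14), Atp5g3 (-1.11), Cox5a (-1.09), Uqcrb (-1.08) and Cox7b (-1.03), and each of these fell short of it without granulocyte array 3. In that case 6 of the 93 genes were lower, where 1163 of 19937 genes tested were called lower. Without that array the count for this step is therefore near the background.

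Over the whole path from promyelocytes to granulocytes 40 of the 93 genes fell and 0 rose, where 16.3% of all genes were called lower and 10.1% higher. With no fold minimum, 62 were lower and 3 were higher. The 40 comprised 15 of 34 subunits of complex I, 2 of 4 of complex II, 3 of 8 of complex III, 5 of 19 of complex IV, 9 of 17 of complex V and 6 of 11 assembly factors. The largest falls were those of Atp5g2 (-2.79, SE 0.20, adjusted p = 7.44e-09), Ndufaf2 (-2.73), Ndufaf4 (-2.56), Atp5g1 (-2.45) and Ndufs3 (-2.43), and the calls nearest to the fold required were Ndufv2 (-1.15), Ndufa12 (-1.13), Ndufa5 (-1.11), Ndufs7 (-1.07) and Uqcr11 (-1.04). The genes with the highest differences did not pass: Cox6a2, the heart and muscle form of a complex IV subunit, had 0.88 and Sdhaf2, which attaches FAD to Sdha, had 0.80. Without the 2 arrays, 41 genes were lower. Without granulocyte array 3 alone there were 33, and without promyelocyte array 3 alone 46 were lower and 1, Cox6a2, was higher.

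Compared with LSK cells, granulocytes had 28 genes lower and 1 higher, where 16.5% of all genes were called lower and 9.59% higher. With no fold minimum, 46 were lower and 9 were higher. The 28 comprised 10 subunits of complex I, 2 of complex II, 0 of complex III, 4 of complex IV, 7 of complex V and 5 assembly factors. Without the 2 arrays, 23 genes were lower and 1 was higher, and the losses (Cox5a, Cox7b, Ndufb6, Ndufv2 and Sdha) were the same as without granulocyte array 3 alone. This comparison shares its granulocyte arrays with the preceding one, so the 28 and the 40 are not separate evidence.

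**Figure D2:**
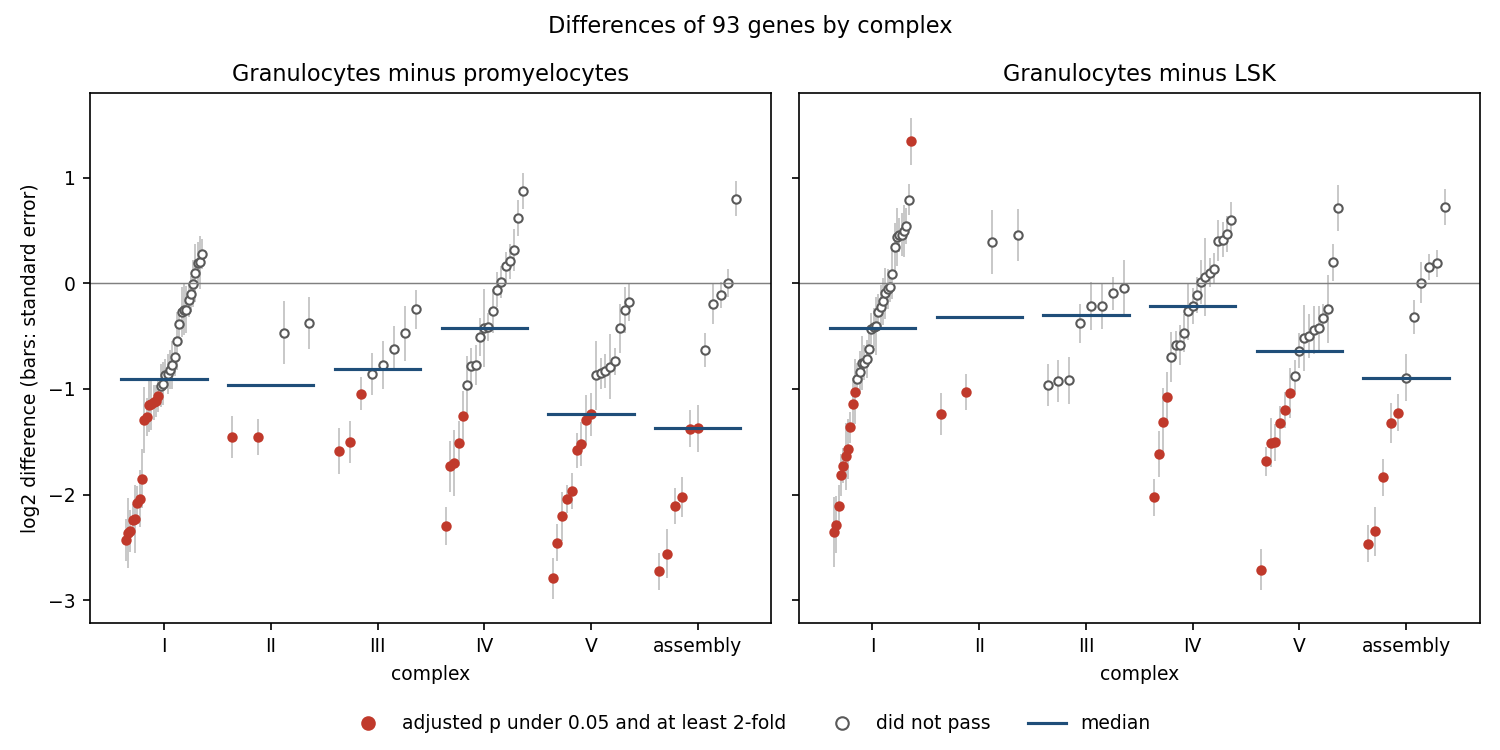
Each point is 1 gene, with its log2 difference and standard error (y axis), in granulocytes minus promyelocytes (left) and granulocytes minus LSK cells (right); genes are sorted within each complex and in the assembly factors, filled red points passed the test and blue lines are medians. Every called gene on the left lies below 0, and on the right 1 called gene, Ndufa1 of complex I at 1.35, lies above 0.

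Complex I, which takes electrons from NADH, was the group with the most genes, and its members moved in both directions. Its core subunits carry the flavin and most of the iron-sulfur clusters, and 5 of the 6 measured here fell from promyelocytes to granulocytes. Ndufs3, a core subunit of the peripheral arm, had log2 values of 9.19, 9.29 and 8.96 in LSK cells, 9.57, 9.52 and 9.30 in promyelocytes, 8.12, 8.11 and 8.31 in myelocytes and 7.21, 7.42 and 6.48 in granulocytes. The last 3 lie below all the others, and the difference from LSK cells was -2.11 (SE 0.20, adjusted p = 2.33e-07). Ndufv1, the subunit that binds NADH, had 8.22, 8.27 and 7.75 in LSK cells, 8.97, 8.99 and 8.90 in promyelocytes, 7.66, 7.50 and 7.59 in myelocytes and 6.73, 6.79 and 6.63 in granulocytes, and its difference from LSK cells was -1.36 (SE 0.15, adjusted p = 1.05e-06). Granulocyte and LSK values did not overlap for either gene. A second array row named for Ndufs3 had a difference from LSK cells of only -0.30, so its value depends on the row used.

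Ndufs1, the largest core subunit, was the core gene that did not pass between promyelocytes and granulocytes (-0.27, SE 0.24, adjusted p = 0.356). It had 8.63, 8.21 and 7.99 in LSK cells and 8.11, 8.21 and 8.77 in granulocytes. These values overlap, and the difference was 0.09 (SE 0.24, adjusted p = 0.766). Ndufs7 (-0.90) and Ndufs8 (-0.76), core subunits that carry iron-sulfur clusters, also missed the fold required against LSK cells. The median difference from LSK cells was -1.02 over the 6 core subunits, with 3 called lower, and -0.34 over the 28 accessory subunits, with 7 called lower and 1 higher.

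Among the accessory subunits of complex I the differences from LSK cells ran from -2.36 for Ndufc2 to 1.35 for Ndufa1. Ndufc2, of the membrane arm, had 9.50, 9.34 and 8.86 in LSK cells, 9.93, 9.40 and 8.41 in promyelocytes, 8.73, 8.59 and 8.61 in myelocytes and 7.16, 7.31 and 6.16 in granulocytes (SE 0.33, adjusted p = 1.84e-05). Its granulocyte values lay below every other array. Ndufab1, which is also the mitochondrial acyl carrier protein of fatty acid and lipoic acid synthesis, had a difference of -2.28 (SE 0.27, adjusted p = 2.64e-06). A second array row named for Ndufab1 had 0.57, however, and the gene was not called with its rows averaged (-0.86).

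On the rows used, Ndufa1 was the only one of the 93 genes called higher in granulocytes than in LSK cells. A further row of Atp5l, given below, was also called higher. Among calls on the rows used, only Ndufa1 opposed the median of its complex. Its granulocyte values of 7.97, 7.85 and 8.75 all lay above the LSK values given above (difference 1.35, SE 0.22, adjusted p = 9.15e-05), and its myelocyte values were 8.56, 8.12 and 8.09. From promyelocytes to granulocytes it differed by 0.00 (SE 0.22), so the whole difference lay at the first stage. The next highest complex I genes against LSK cells were Ndufa3 (0.79, adjusted p = 0.000242) and Ndufb7 (0.55, adjusted p = 0.0142), both accessory subunits that missed the fold required.

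Complex II, succinate dehydrogenase, links the citric acid cycle to the chain, and of its 4 subunits 2 were called lower in granulocytes than in LSK cells. All 4 had differences above 0 from LSK cells to promyelocytes and below 0 from promyelocytes to granulocytes, where Sdha (-1.45) and Sdhc (-1.46) passed and Sdhb (-0.37) and Sdhd (-0.47) did not. Sdha, the flavoprotein that oxidises succinate, had log2 values of 10.1, 9.81 and 9.56 in LSK cells and 9.01, 8.91 and 8.49 in granulocytes, a difference of -1.03 (SE 0.17, adjusted p = 8.41e-05). Sdhc, a membrane anchor, had 8.39, 8.29 and 7.95 against 7.03, 7.07 and 6.81, a difference of -1.24 (SE 0.20, adjusted p = 6.81e-05). Granulocyte and LSK values of these 2 genes did not overlap, but Sdha lost its call without granulocyte array 3 (-0.87), without LSK array 1 (-0.88) and with 75th percentile centring (-0.81).

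Sdhb and Sdhd did not pass the test against LSK cells. Sdhb, the iron-sulfur subunit, had 7.44, 6.95 and 6.63 in LSK cells and 7.82, 7.56 and 7.02 in granulocytes (0.46, SE 0.25, adjusted p = 0.129). Sdhd, the second membrane anchor, had 8.54, 8.11 and 7.31 against 8.63, 8.42 and 8.08 (0.39, SE 0.30, adjusted p = 0.283). Both sets of values overlap.

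The same values can be set against each other within each array, which restates the contrast and adds no separate evidence. The value of Sdhd minus that of Sdhc was 0.15, -0.18 and -0.65 on the LSK arrays, 0.65, 0.36 and 0.23 on the promyelocyte arrays, 0.51, 0.45 and 0.45 on the myelocyte arrays and 1.59, 1.35 and 1.27 on the granulocyte arrays. Since probes differ in response, the change in this difference between populations is the measurement and its sign is not. The change from LSK cells to granulocytes was 1.63 for Sdhd minus Sdhc, 1.42 for Sdhd minus Sdha, 1.49 for Sdhb minus Sdha and -1.70 for Sdhc minus Sdhb, with no overlap of arrays in any of these 4 pairs. For Sdhc minus Sdha it was -0.21 and for Sdhd minus Sdhb -0.07, with overlap. The pairs were set up after the values were seen and carry no test. On the 3 granulocyte arrays Sdhc minus Sdhb was -0.78, -0.48 and -0.21, against 0.94, 1.35 and 1.33 on the LSK arrays.

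**Figure D3:**
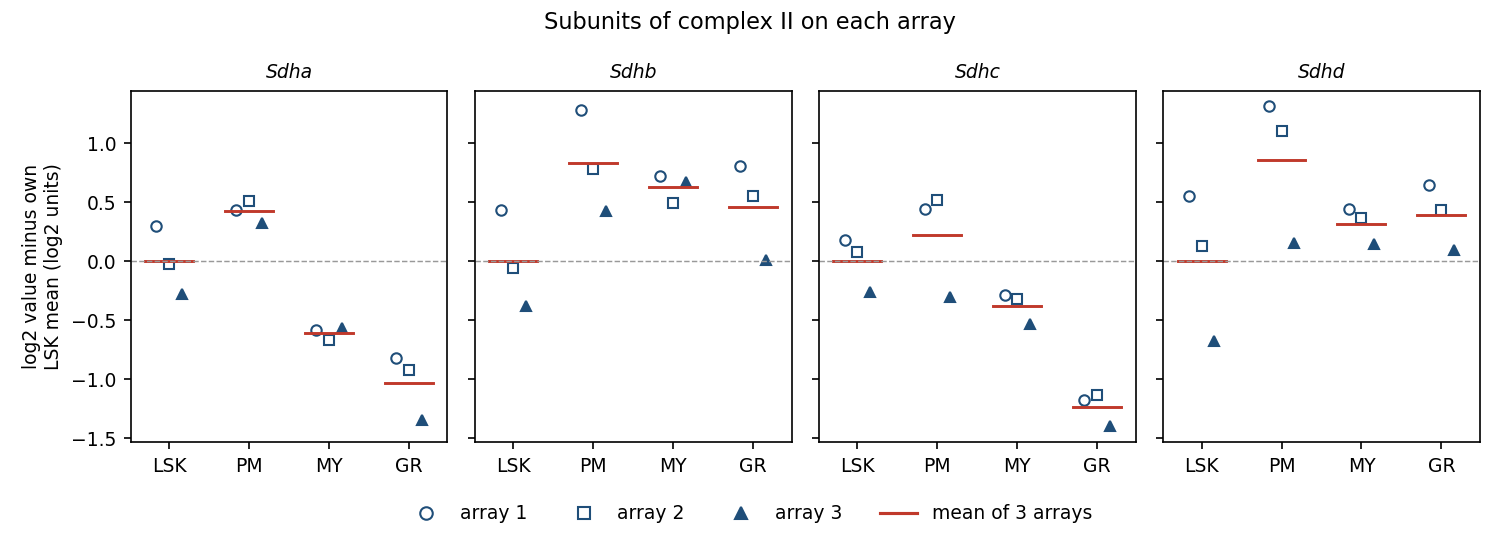
Each panel plots 1 subunit of complex II as its log2 value minus its own LSK mean (y axis, log2 units) on each array, with symbols for the array number and red lines for the mean of 3 arrays. Granulocyte values of Sdha and Sdhc lie below all LSK values, while those of Sdhb and Sdhd overlap them.

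Complex III, which passes electrons from ubiquinol to cytochrome c, had no gene called between granulocytes and LSK cells. The differences ran from -0.96 for Uqcrc2 (SE 0.20, adjusted p = 0.00074) to -0.04 for Uqcr10 (SE 0.26, adjusted p = 0.908), and 3 of the 8 had an adjusted p under 0.05. Uqcrc1 and Uqcrc2, the core proteins, and Uqcrb, which binds near ubiquinone, were at -0.92, -0.96 and -0.92, just short of the fold required. From promyelocytes the falls of Uqcrb (-1.59, adjusted p = 1.43e-05), Uqcrc1 (adjusted p = 1.01e-05) and Uqcr11 (-1.04, adjusted p = 3.15e-05) passed. A second array row named for Uqcr11 had -0.51 and was not called, nor was the gene with its rows averaged (-0.78). Uqcrfs1, the Rieske iron-sulfur protein, had -0.62 in that comparison (SE 0.22) and did not pass.

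Complex IV, cytochrome c oxidase, includes broadly expressed and tissue-restricted forms of the same subunits. Ndufa4, first named for complex I and now placed in complex IV, fell most, with 10.7, 10.4 and 10.2 in LSK cells, 10.8, 11.0 and 10.3 in promyelocytes, 9.62, 9.67 and 9.66 in myelocytes and 8.37, 8.56 and 8.37 in granulocytes. Its difference from LSK cells was -2.03 (SE 0.18, adjusted p = 9.35e-08), with all myelocyte arrays below the promyelocyte arrays and all granulocyte arrays below the myelocyte arrays. Cox6b2, a form known from testis, had -1.62 (SE 0.21, adjusted p = 9.31e-06), with 6.18, 6.88 and 7.05 in LSK cells and 5.10, 5.05 and 5.11 in granulocytes. Cox7b (-1.31) and Cox5a (-1.08) were also called but not without granulocyte array 3. Each of the other complex IV genes missed the rule against LSK cells, up to Cox6a2 at 0.60 (SE 0.17, adjusted p = 0.00779).

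For paralogues of complex IV the values are given as differences from LSK cells, since levels of different probes cannot be ranked. The common form Cox4i1 had -0.21 (SE 0.17) and Cox4i2, a form known from lung, had 0.14 (SE 0.15). Cox6a1 had -0.58 and Cox6a2 0.60, and Cox6b1 had -0.26. In the Cox7a group, Cox7a1, the muscle form, had 0.10, Cox7a2 had 0.06 (SE 0.37, with the low value on array 3 given above), and Cox7a2l, which joins complexes III and IV into supercomplexes, had -0.58 (SE 0.13, adjusted p = 0.00158).

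Other restricted forms lay near or below the level of olfactory receptor genes. Cox7b2 had means of 2.59 to 3.00 in the 4 populations, Ndufa4l2 lay above that level in 1 population, and Cox8b in 2. Their differences from LSK cells were 0.41, 0.41 and -0.11. Cox8a, the common form, had 0.01 (SE 0.21) and Cox8c 0.47 (SE 0.17, adjusted p = 0.0328).

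Complex V had the lowest median of the 5 complexes in both granulocyte comparisons above, and all 17 of its genes had differences below 0 between promyelocytes and granulocytes. The 3 genes for subunit c encode the same mature protein with different import sequences. Atp5g2 had 10.5, 10.2 and 10.4 in LSK cells, 10.8, 10.6 and 9.96 in promyelocytes, 9.11, 8.71 and 8.68 in myelocytes and 7.62, 7.75 and 7.64 in granulocytes. It was 6.56-fold lower in granulocytes than in LSK cells (log2 difference -2.71, SE 0.20, adjusted p = 1.06e-08), the largest fall of the 93 genes on the rows used. Other array rows named for Atp5g2 had -1.14 and -2.38, both called lower, so the size and rank of its fall depend on the row. The row at -1.14 had -0.62 between promyelocytes and myelocytes and was not called there.

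Atp5g1 and Atp5g3 were highest in promyelocytes, though neither was called higher there than in LSK cells. Atp5g1 had 7.78, 8.24 and 7.82 in LSK cells, 9.23, 8.90 and 8.56 in promyelocytes, 7.06, 7.15 and 6.98 in myelocytes and 6.45, 6.43 and 6.44 in granulocytes. Its promyelocyte values lay above and its myelocyte and granulocyte values below all LSK values, though the difference of 0.95 (SE 0.17, adjusted p = 0.00166) missed the fold required. Atp5g3 had 9.57, 9.58 and 9.03 in LSK cells, 10.3, 10.1 and 9.82 in promyelocytes and 8.11, 8.26 and 7.26 in granulocytes. Its difference of promyelocytes from LSK cells was 0.70 (SE 0.23, adjusted p = 0.0614). The differences of granulocytes from LSK cells were -1.51 for Atp5g1 (adjusted p = 1.95e-06) and -1.51 for Atp5g3 (adjusted p = 4.25e-05). A second array row named for Atp5g1 had -0.68 and was not called.

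In the catalytic F1 part, Atp5a1 and Atp5b, the alpha and beta subunits that form the ATP-making sites, fell together. Atp5a1 had 11.1, 11.1 and 10.8 in LSK cells and 9.18, 9.27 and 9.41 in granulocytes (-1.69, SE 0.13, adjusted p = 3.21e-08), and Atp5b had 11.5, 11.2 and 11.2 against 10.1, 10.1 and 9.62 (-1.32, SE 0.17, adjusted p = 4.95e-06). Neither gene overlapped between the populations. The delta subunit Atp5d had -1.04 and was the last of the 3 F1 genes called, a call lost without LSK array 1 (-0.94), without granulocyte array 2 (-0.96) and with 75th percentile centring (-0.83), while the gamma subunit Atp5c1 (-0.88) and the epsilon subunit Atp5e (-0.44, adjusted p = 0.12) did not pass. In the stalk and membrane part, Atp5o, which joins the stalk to F1, fell by 1.20 (SE 0.17, adjusted p = 1.9e-05), or by 0.99 with 75th percentile centring, short of the fold required. At the other end Atp5l, a membrane subunit of the dimer interface, had 0.72 (SE 0.22, adjusted p = 0.0118) and was not called on the row used. The 5 array rows named for Atp5l spanned 0.43 to 1.05, and the row at 1.05 was called higher. The stalk subunit Atp5pb had 0.20 (SE 0.18, adjusted p = 0.356).

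**Figure D4:**
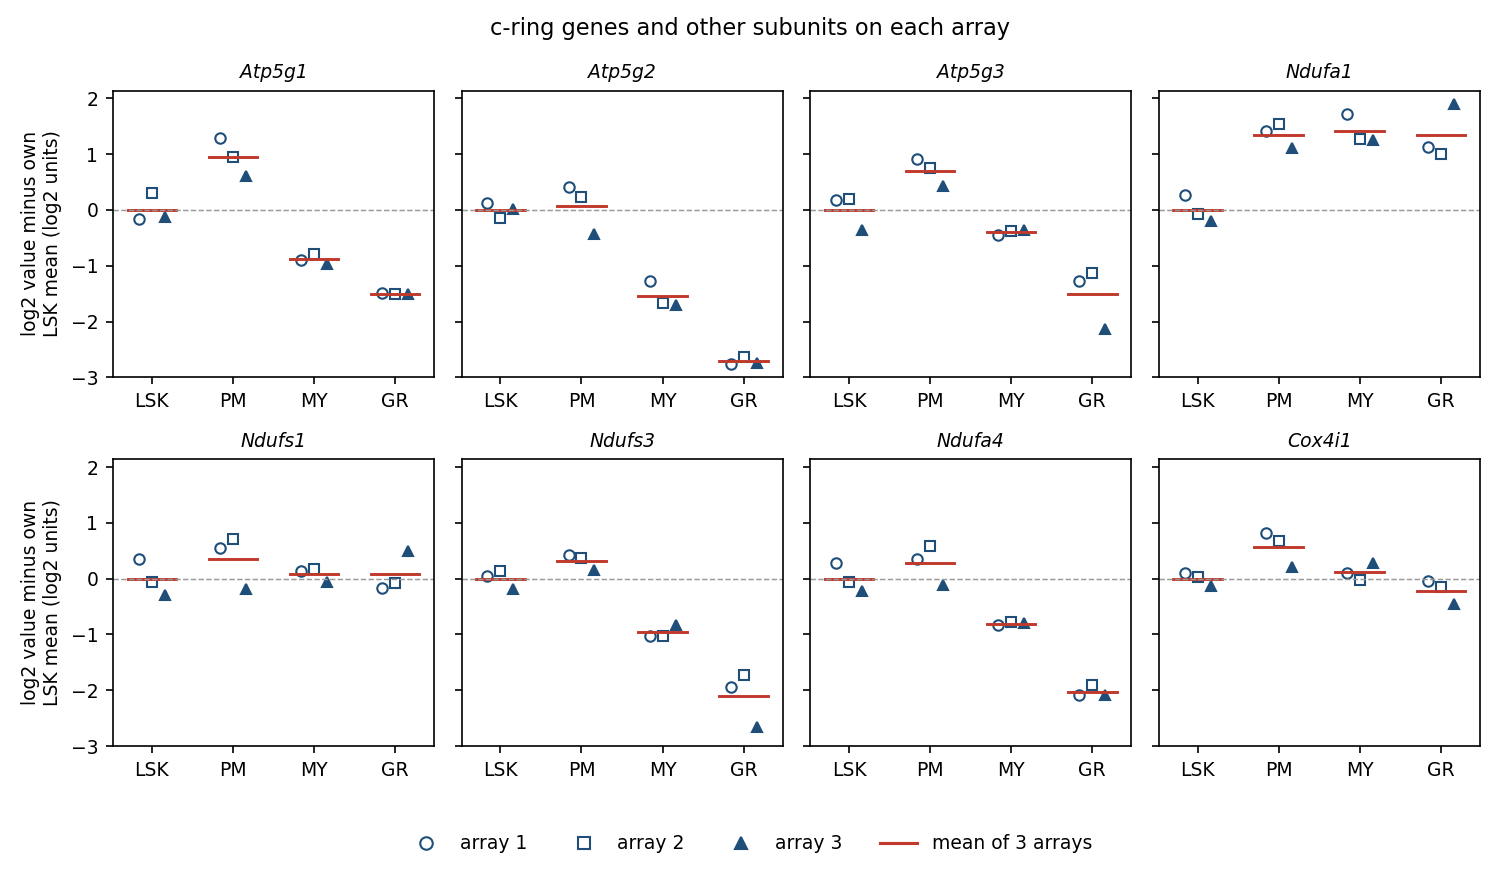
Each panel plots 1 gene as its log2 value minus its own LSK mean (y axis, log2 units) on each array in LSK cells, promyelocytes (PM), myelocytes (MY) and granulocytes (GR), with symbols for the array number and red lines for the mean of 3 arrays. The c-ring genes, Ndufs3 and Ndufa4 are lowest on the granulocyte arrays, and Ndufs1 and Cox4i1 stay within 1 unit of their LSK mean. Ndufa1 lies above all its LSK values from promyelocytes on, by a mean of 1.35 in promyelocytes and in granulocytes.

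Of the 40 genes that fell from promyelocytes to granulocytes, 12 were called only at the first step, 6 only at the second, 5 at both and 17 at neither. For the 34 subunits a median of 49.4% of the log2 fall lay between promyelocytes and myelocytes (range 24.4 to 85.2%). For the 6 assembly factors the median was 75.9% (range 61.4 to 111%), but 4 of the 6 lay below the level of olfactory receptor genes in granulocytes, where a further fall is hard to measure, and the difference from the subunits was not tested. A contrast of the 2 steps in the same fit, added after seeing the data, passed for 5 of the 93 genes at an adjusted p under 0.05 and a difference of at least 1, all with the first step the lower one. The same was true of 5.98% of all genes, so the count is near the background, and the opposite of 7.55% of all genes and 0 of the 93.

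Of these 5 genes, Cox7a2l is not among the 40. They were Ndufaf4 (2.35, SE 0.40, adjusted p = 0.000621), Ndufaf6 (1.67, adjusted p = 0.00117), Ndufaf2 (1.60, adjusted p = 0.00157), Atp5g1 (1.21, adjusted p = 0.0103) and Cox7a2l (1.05, adjusted p = 0.00437), where the value is the second step minus the first. Ndufaf4 had 7.48, 7.15 and 6.36 in promyelocytes, 4.28, 4.49 and 4.84 in myelocytes and 4.56, 4.44 and 4.30 in granulocytes. Its granulocyte mean of 4.43 lay below the level of olfactory receptor genes, where a fall is hard to measure. Ndufaf2, Ndufaf5 and Ndufaf6 lay below that level in both myelocytes and granulocytes. Ndufaf2 still had a difference of -0.56 between these stages (adjusted p = 0.031), with 6.90, 6.61 and 6.48 in promyelocytes, 4.50, 4.41 and 4.59 in myelocytes and 3.98, 3.69 and 4.14 in granulocytes.

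Not every assembly factor fell. Sdhaf1 (-1.84) and Ndufaf1 (-1.33) were lower in granulocytes than in LSK cells, with Ndufaf2 (-2.47), Ndufaf4 (-2.35) and Ndufaf6 (-1.23). Ndufaf3 (0.01), Ndufaf7 (0.15) and Sdhaf2 (0.73, adjusted p = 0.0018) did not pass. Sdhaf4 had 0.19 on the row used, close to the level of olfactory receptor genes, while its second row had -1.87.

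**Figure D5:**
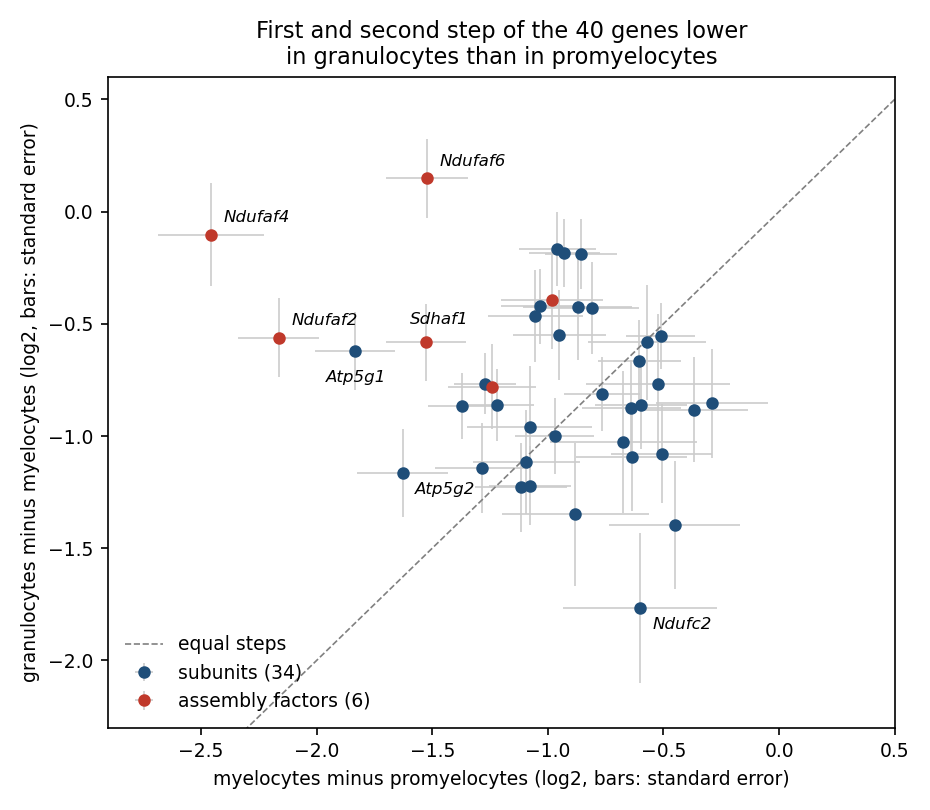
Each point is 1 of the 40 genes lower in granulocytes than in promyelocytes, with the log2 difference of myelocytes from promyelocytes (x axis) against that of granulocytes from myelocytes (y axis) and standard errors as bars; blue points are subunits, red points assembly factors, and the dashed line marks equal steps. All 6 assembly factors lie above the line, where the first step is the larger fall, and Ndufaf4 and Ndufaf6 lie at 0.15 or less from 0 on the y axis.

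The counts of the wider pathway lists that follow are of granulocytes against LSK cells and stand beside 16.5% of all genes lower and 9.59% higher. Lower were 10 of 17 complex I assembly factors and 10 of 33 assembly factors of complexes II to V, with medians of -1.23 and -0.67. Each of these lists holds some of the 11 factors already described. Cmc1, a copper-binding factor of complex IV, fell by 2.97 (SE 0.20, adjusted p = 5.01e-09), and Ecsit, a complex I factor that also acts in Toll-like receptor signalling, fell by 1.88. The copper chaperone Cox17 was the only higher one, by 1.12 (SE 0.19, adjusted p = 9.06e-05).

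Genes that maintain and express mitochondrial DNA had 12 of 21 lower and 0 higher, against 16.5% and 9.59% of all genes, with a median of -1.47, and 16 were lower at an adjusted p under 0.05 with no fold minimum. The largest falls were those of Tfb1m, an rRNA methyltransferase (-3.32, SE 0.20, adjusted p = 1.62e-09), Lrpprc, which stabilises mitochondrial mRNAs (-3.24, adjusted p = 1.83e-09), and Tfam, which packages and transcribes the genome (-2.88, adjusted p = 1.4e-08). In the mitochondrial ribosome 42 of 77 genes were lower and 1 was higher, with a median of -1.07. The extremes there were Mrpl42 (-3.12) and Mrpl33 (2.33).

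Of 20 electron carriers and quinone-linked dehydrogenases, 9 were lower and 2 higher, with a median of -0.73. Cycs, cytochrome c, fell by 1.76 (SE 0.26, adjusted p = 2.6e-05), and the ubiquinone synthesis genes Coq2 and Coq5 fell by 1.86 and 1.75. Sqor, which feeds electrons from hydrogen sulfide to ubiquinone, rose by 3.86 (SE 0.17, adjusted p = 6.24e-11), most of it between promyelocytes and myelocytes (3.16), and Coq4 rose by 1.02. Gpd2, the mitochondrial glycerol phosphate dehydrogenase, rose by 1.48 between promyelocytes and myelocytes.

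Of 13 citric acid cycle genes 7 were lower and 0 higher, with Idh2 (-4.21), Suclg2 (-3.99) and Idh3a (-3.98) at the front. Of 9 carriers of adenine nucleotides, phosphate and protons 4 were lower and 0 higher, led by the ADP/ATP exchanger Slc25a4 (-4.65, SE 0.21, adjusted p = 7.96e-11), the outer membrane channel Vdac3 (-1.83) and the second exchanger Slc25a5 (-1.70). Among 12 nuclear regulators of respiratory genes 3 were lower and 1 higher, near the shares of 16.5% and 9.59% over all genes, with a median of -0.20. Myc fell by 6.21 (SE 0.26, adjusted p = 2.7e-11), and the coactivators Pprc1 and Ppargc1b fell by 2.37 and 1.17, while the nuclear receptor Esrra rose by 1.20 (SE 0.14, adjusted p = 1.64e-06). The genes for NRF1, for the DNA-binding part of GABP (Gabpa) and for YY1 were not called in this comparison. Between LSK cells and promyelocytes these lists held 2 calls, Etfb, which was higher by 1.33, and Polg2, which was lower.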

How the data were processed

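Total RNA of each sorted population had been hybridised to 1-colour arrays, 12 in all. The deposited log2 values had been made by the authors with justRMA (background correction, quantile normalization, median polish); no source used here names its version. Array medians lay between 4.96 and 5.12. Of 34760 rows, 21640 had 1 symbol in the platform's probe table, 1321 several and 11799 none; the row with the highest mean stood for each of 19937 genes. For 18 of the 93 genes with several rows, no rows were called in opposite directions, but for 11 the call of another row differed. Group means were fitted over all genes with limma 3.58.1 in R 4.3.3 (lmFit, eBayes; 8 residual and 7.02 prior degrees of freedom; tested on simulated data), with Benjamini-Hochberg adjustment over all genes. The median SD within a group was 0.21 over all genes and 0.26 over the 93, and 3 arrays per population limit the precision. Quantile normalization forces like distributions, so differences are relative to all genes. Alternatives were another centring, quantile normalization, averaged rows, a filter on dim genes, a replicate block, other thresholds and leaving out arrays. Named were the extreme called genes of each comparison and complex, paralogues, all complex II genes and the extremes of each pathway list. Deviations from group means of same-numbered arrays of myelocytes and promyelocytes had correlations of 0.18, 0.12 and 0.20. Each was over 0.1, which held for no other pair of populations compared. They lay within the range of -0.37 to 0.29 of differently numbered arrays of different populations. The labels give no pairing, and the main fit used none. The genes and lists were chosen with earlier results of these data known.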

Additional observations from a re-analysis of the deposited data

How the results depend on the processing

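Of 100 calls of the 93 genes over the 5 comparisons, none turned its direction under any alternative. Averaging all rows of a gene lost 10 calls, quantile normalization 8, 75th percentile centring 19 and leaving out granulocyte array 3 17; median centring lost 0 and added 12. The 75th percentile was lowest on the granulocyte arrays (6.71 to 6.76), so centring on it moved the median of all genes in granulocytes minus LSK from 0.17 to 0.39, and over all genes it called 2440 higher and 2781 lower against 1912 and 3293. Under it 6 genes were lower in granulocytes than in myelocytes and 2 were higher in each of the other granulocyte comparisons; medians in granulocytes minus promyelocytes were -0.68 (complex I), -0.59 (III), -0.20 (IV) and -1.02 (V), and against LSK -0.21 (I) and 0.0028 (IV). Median centring gave 6 genes higher in promyelocytes than in LSK, and quantile normalization 1 higher in granulocytes than in promyelocytes. Averaged rows gave 7 genes lower in granulocytes than in myelocytes and complex V medians of -0.54 (myelocytes minus promyelocytes) and -0.97 (granulocytes minus promyelocytes). With no fold minimum the counts higher and lower were 19 and 0, 1 and 36, 2 and 35, 3 and 62, and 9 and 46, in the order of the report. The cause of these changes was not tested.

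Leaving out 1 array at a time, the count higher in promyelocytes than in LSK ranged from 2 to 7, and the counts lower from 16 to 23 (myelocytes minus promyelocytes), 6 to 16 (granulocytes minus myelocytes), 33 to 46 (granulocytes minus promyelocytes) and 23 to 31 (granulocytes minus LSK). The count higher in granulocytes than in promyelocytes ranged from 0 to 1. In granulocytes minus promyelocytes the medians ranged from -0.66 to -0.32 (complex IV) and -1.29 to -1.02 (complex V), and in myelocytes minus promyelocytes the complex III median ranged from -0.51 to -0.23. Of the 100 calls, 25 were lost without at least 1 array. With promyelocyte array 3 and granulocyte array 3 both left out, 7 genes were higher in promyelocytes than in LSK and 6 lower in granulocytes than in myelocytes.

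Same-numbered arrays of different populations were correlated between -0.25 and 0.25 in their deviations from group means, and 6 of 12 arrays matched best with an array of their own number, a hint from the data and not from the design. Differently numbered arrays of different populations spanned -0.37 to 0.29, so these correlations do not set same-numbered arrays apart. The main fit used no pairing. A fit with the replicate block kept all 100 calls, added 0 and passed 72 genes in the F test against 67.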
